A study of Mus musculus with 2 samples.

Results

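The 10 long noncoding RNAs (lncRNAs) described here are Neat1, Malat1, Gm20528, Gm31356, Sorbs2os, Hnf4aos, Egfros, Gm15622, Gm42047 and 4930556N13Rik, of 32285 genes listed in 2 single-cell libraries of mouse liver. They were found by gene symbol, and each of the 10 symbols was present once in both libraries. The set was chosen from measured values, as lncRNAs that stood out together among hepatocyte barcodes of these same libraries, and no numerical threshold was recorded with the choice. Their values in hepatocytes are therefore given as a description. The name "nuclear-retained" rests on what is known of Neat1 and Malat1, since no nuclear fraction was measured, and Malat1 was not particular to hepatocytes (described with the other classes of barcodes).

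In the WT library, liver cells came from wild-type littermates. In the HKO library they came from littermates carrying loxP-flanked miR-33 and an Albumin-Cre transgene, which deletes this microRNA where the albumin promoter is active, that is in hepatocytes. All mice were males given a high-fat diet that lacks choline (CD-HFD) from 8 weeks of age for 6 months, a model of steatohepatitis, and were fasted before the end point. Each library was made from a pool of 3 livers digested by collagenase perfusion, with hepatocytes and sorted non-parenchymal cells mixed in equal number, and was prepared with the 10x Genomics 3' kit, version 2. With 1 library per genotype there is no replicate: no value below carries a p-value, and every interval is a 95% interval for counting error only.

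LncRNAs are transcribed and processed much like mRNAs but are not known to be translated, and many of them stay in the nucleus, where mRNAs spend only part of their life. Malat1 is an abundant RNA of nuclear speckles, the bodies that store splicing factors, and Neat1 is the scaffold of paraspeckles, bodies that form around its own long isoform. Both mature Malat1 and the long Neat1 isoform end in a triple helix of RNA made by RNase P cleavage, in place of a poly(A) tail. When the quality of single-cell libraries is judged, such RNAs are commonly read beside the share of mitochondrially encoded UMIs (molecules counted by their unique molecular identifiers).

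The WT library held 30078 barcodes with 130451427 UMIs and the HKO library 20000 barcodes with 52563185 UMIs, at medians of 2658 and 1130 UMIs per barcode, so the HKO library was the shallower. Barcodes of clusters that were not named for another cell type, with at most 50% mitochondrial UMIs, 5000 or more UMIs and a depth of no less than 2 times the commonest one in the library were called hepatocyte-like. They numbered 2044 in WT and 1696 in HKO, with median depths of 19690 and 10682 UMIs and median mitochondrial shares of 11.6% and 13.5%. All 8 hepatocyte markers had a UMI in at least 80.3% of hepatocyte-like barcodes in both libraries, but these markers were also counted in every other class: Alb stood at 41933 CPM in hepatocyte-like and 18410 CPM in T and NK barcodes of WT. At free RNA depth Alb stood at 36159 CPM in WT and at 33734 CPM in HKO, where hepatocyte-like barcodes had 32404 CPM, so that its level in CPM hardly separates these classes, which differ by depth. CPM here means UMIs of a gene scaled to 1000000 UMIs of genes that are not mitochondrially encoded. Barcodes of the same kind of cluster and mitochondrial limit, within 25% of the commonest depth (2570 UMIs in WT, 813 in HKO), are called free RNA depth. There were 23086 in WT and 8454 in HKO. Their lack of markers of another cell type is part of the rule, and that they hold free RNA only was not tested. As a check of the labels, mature miR-33 has no row in the matrices, and its host gene Srebf2 stood at 28.8 CPM in WT and 24.2 CPM in HKO hepatocyte-like barcodes, which says nothing about the deletion. Cell barcodes shared between the libraries were not analysed here.

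Of the 10 lncRNAs, 7 overlap a protein-coding gene on the opposite strand (positions on GRCm38/mm10, GENCODE M21). Hnf4aos (chr2:163493807-163541720, minus strand) lies with 72.9% of its length over Hnf4a, which encodes a master nuclear receptor of hepatocytes. Sorbs2os (chr8:45723325-45819297, minus) lies within Sorbs2, a gene for a cytoskeletal adaptor, and shares 1051 exonic bases with it. Egfros (chr11:16815431-16830702, minus) lies within Egfr, the epidermal growth factor receptor gene. Gm31356 (chr19:55099502-55117815, plus; AC110206.1 in GENCODE) lies within Gpam, whose product begins triglyceride synthesis. Gm15622 (chr13:93625382-93628633, plus) lies within Bhmt, encoding an enzyme that uses betaine, made from choline, to remethylate homocysteine, and shares 187 exonic bases with it. Gm20528 (chr1:88055393-88218584, minus) spans the Ugt1a cluster of glucuronosyltransferase genes and shares 534 exonic bases with Ugt1a10. 4930556N13Rik (chr11:88851604-88881395, plus) lies with 43.6% of its length over Akap1, a gene for a mitochondrial kinase anchor.

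The other 3 are intergenic. Neat1 (chr19:5824708-5845478, minus) and Malat1 (chr19:5795690-5802672, minus) are neighbours on chromosome 19, and the nearest coding gene to Neat1 is Frmd8, at 4224 bases. Gm42047 (chr8:121833247-121841178, plus) lies 3678 bases from Klhdc4. Whether the counting used strand, and whether it counted reads in introns, is not given in the sources used here, so reads of an antisense lncRNA and of its partner cannot be told apart with certainty.

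The libraries were primed with oligo(dT) and count the 3' end of a transcript, so the annotated last 60 bases are shown for the RNAs on which the results turn, 5' to 3' on the strand of the RNA (GENCODE M21, GRCm38), with the poly(A) signal AATAAA in capitals. They lie at chr19:5795690-5795749 (Malat1-201), chr19:5842307-5842366 (Neat1-202, the short isoform), chr19:5824708-5824767 (Neat1-201, the long isoform), chr2:163493807-163493866 (Hnf4aos-203), chr8:45723325-45723384 (Sorbs2os-201), chr19:55117756-55117815 (Gm31356) and chr13:93628574-93628633 (Gm15622-201).
Malat1-201: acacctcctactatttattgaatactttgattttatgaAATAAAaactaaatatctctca
Neat1-202: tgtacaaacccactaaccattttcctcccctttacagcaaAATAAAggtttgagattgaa
Neat1-201: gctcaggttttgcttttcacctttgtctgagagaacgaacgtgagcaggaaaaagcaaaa
Hnf4aos-203: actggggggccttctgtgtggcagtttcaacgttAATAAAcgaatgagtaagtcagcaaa
Sorbs2os-201: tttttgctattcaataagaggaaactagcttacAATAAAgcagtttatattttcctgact
Gm31356: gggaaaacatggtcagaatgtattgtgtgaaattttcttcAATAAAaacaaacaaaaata
Gm15622-201: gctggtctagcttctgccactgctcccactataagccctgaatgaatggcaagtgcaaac

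The signal AATAAA, searched on the strand of the RNA, was present in the last 50 bases of 8 of the 20 annotated transcripts of the 10 lncRNAs, against 26.6% of all 141767 GENCODE transcripts. These 8 are not separate 3' ends: Malat1-201, Malat1-202 and Malat1-204 end at nearly the same base, and Hnf4aos-202 and Hnf4aos-203 at the same one. No excess is read from the count. The short Neat1 isoform holds it and the long isoform does not, so a count for Neat1 sums transcripts with unlike 3' ends (lengths 3004 and 20771 bases). The microRNA deleted in HKO is shown with its seed, bases 2 to 8, in capitals (chr15:82198127-82198147, plus, RefSeq GRCm38.p6).
mmu-miR-33-5p: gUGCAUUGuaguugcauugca

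The letters complementary to this seed, CAATGCA, were found in 0 of the 20 transcripts of the lncRNAs, against 9.46% of all GENCODE transcripts searched in the same way over their whole length. A missing match says only that these letters are not in the annotated transcripts.

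Summed over the hepatocyte-like barcodes, the 10 lncRNAs made up 7766 CPM in WT and 7995 CPM in HKO. At free RNA depth they made up 2994 and 4818 CPM. Malat1, the speckle RNA, stood at 6958 CPM (6933 to 6982) in WT and 7019 CPM (6980 to 7057) in HKO, and had a UMI in 2037 of 2044 and 1648 of 1696 hepatocyte-like barcodes. Neat1, the paraspeckle scaffold, stood at 594 CPM (586.8 to 601.2) in WT and 787.2 CPM (774.3 to 800.2) in HKO. Each of these RNAs was counted in most hepatocyte-like barcodes of both libraries, and of the remaining lncRNAs only Hnf4aos was so in WT.

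Hnf4aos was the antisense RNA with the most UMIs, 4371 in WT (99.08 CPM) and 1754 in HKO (96.13 CPM), found in 1133 and 735 hepatocyte-like barcodes. Gm20528, of the Ugt1a cluster, had 1416 UMIs in WT (32.1 CPM) and 585 in HKO (32.06 CPM). Gm15622, within Bhmt, stood at 20.33 CPM in WT and 15.62 CPM in HKO. These values were nearly alike in the libraries for the first pair of genes and lower in HKO for the third.

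Gm42047 stood at 19.54 CPM in WT (862 UMIs) and 8.933 CPM in HKO (163 UMIs). Gm31356, within Gpam, stood at 15.64 and 13.7 CPM, Sorbs2os at 13.08 and 10.74 CPM, and 4930556N13Rik at 10.4 and 8.604 CPM. Egfros was the sparsest, with 188 UMIs in 114 WT barcodes (4.262 CPM) and 50 UMIs in 42 HKO barcodes (2.74 CPM), so its values are the least certain.

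All 10 lncRNAs had a higher level in hepatocyte-like barcodes than at free RNA depth, in both libraries, and each interval of the ratio lay above 1. Of all genes past the filter on low levels given below, 4073 of 7390 in WT and 5679 of 7327 in HKO were above 1 too. In WT the ratio ran from 2.48 (2.46 to 2.49) for Malat1 to 6.70 (5.47 to 8.27) for Sorbs2os, with 4.50 (4.39 to 4.62) for Neat1, 3.55 for Hnf4aos and 6.43 (5.48 to 7.58) for Gm15622. In HKO it ran from 1.57 (1.55 to 1.59) for Malat1 to 5.32 (3.04 to 10.2) for Sorbs2os, with 2.91 (2.77 to 3.06) for Neat1, 2.24 for Hnf4aos and 4.58 for Gm15622. Every one of the 10 ratios was smaller in HKO than in WT, and this difference between the libraries was not tested.

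Among genes with a mean of at least 10 CPM over both classes, 6 of the 6 lncRNAs that passed this filter in WT were at least 2-fold higher in hepatocyte-like barcodes, where 4.69% of 7392 genes were. In HKO 3 of 5 were, against 1.09% of 7328 genes. The filter keeps a lncRNA mainly through its hepatocyte level, and the set was chosen in these hepatocytes, so the counts describe the choice. The free RNA of HKO is also scarcer per barcode, with a median of 839 UMIs against 2596 in WT, and its median mitochondrial share was 6.51% against 3.02%.

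**Figure D1:**
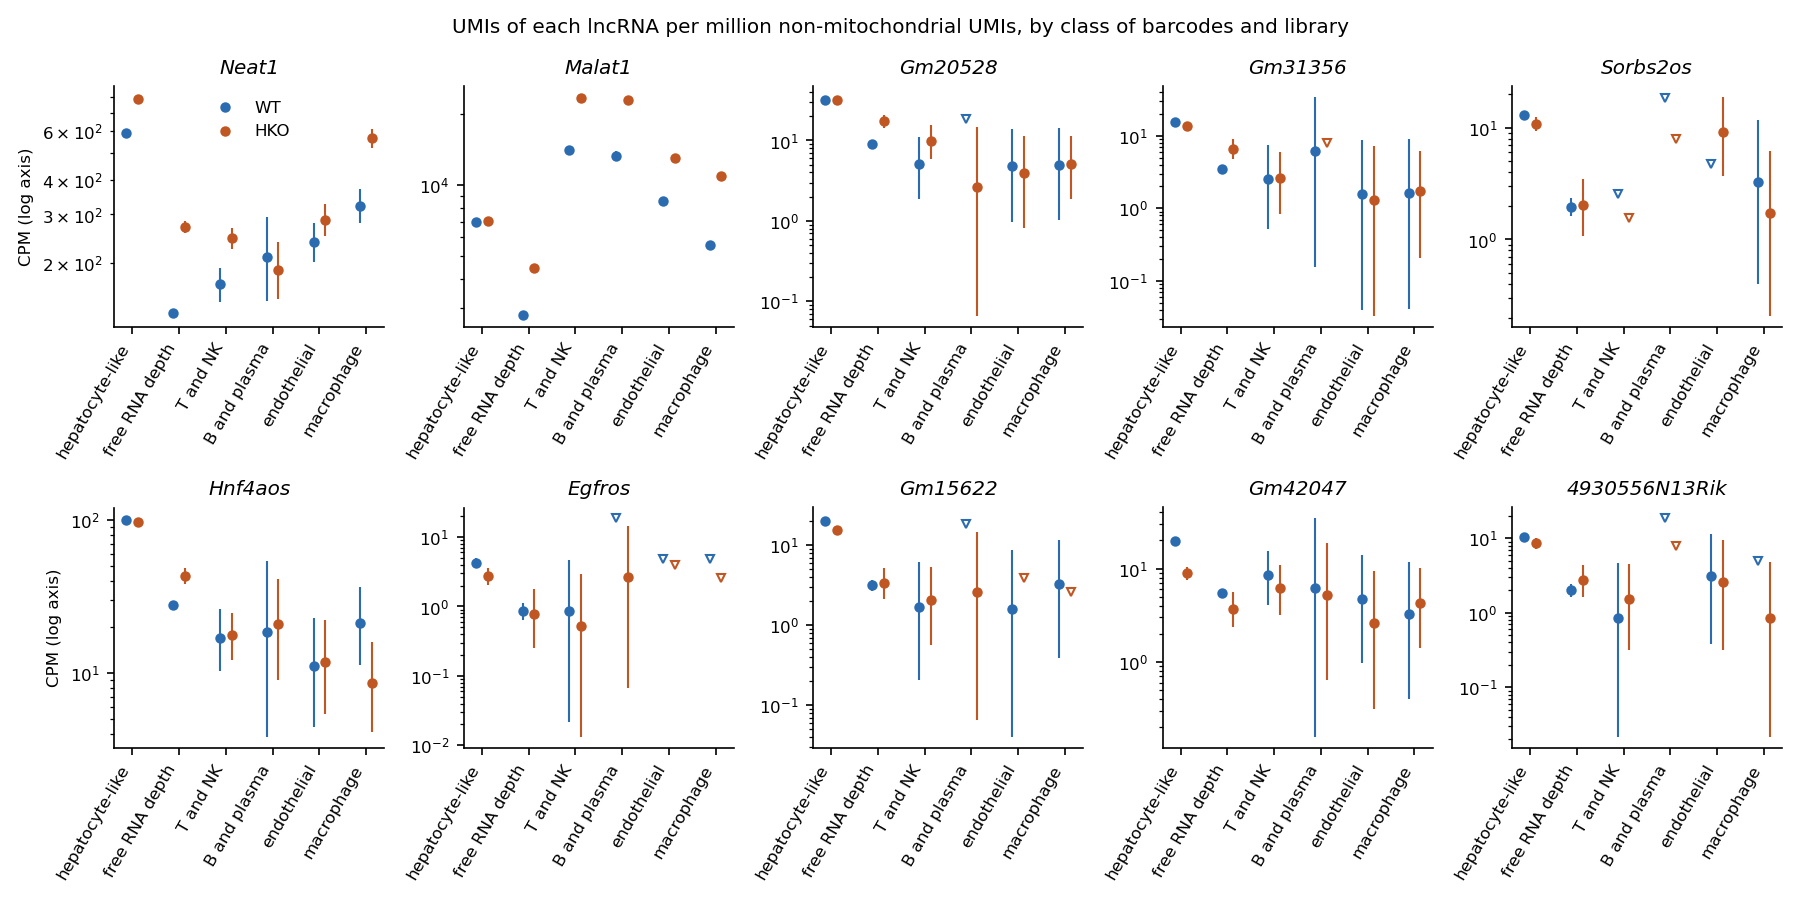
Level of each lncRNA in 6 classes of barcodes, in CPM on a log axis that differs between panels, for the WT (blue) and HKO (orange) library. Points are sums over barcodes with their 95% counting interval, and an open triangle marks the limit of 3 counts where no UMI was found; Malat1 is highest in T and NK and in B and plasma barcodes (14069 and 13302 CPM in WT), while Hnf4aos and Gm20528 are highest in hepatocyte-like barcodes.

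Malat1 was higher in most other named cell classes than in hepatocyte-like barcodes. In WT it stood at 14069 CPM in T and NK, 13302 in B and plasma, 8595 in endothelial and 5542 in macrophage barcodes, the last being below the hepatocyte level. In HKO the same classes held 23416, 22847, 12976 and 10952 CPM, each above the hepatocyte level. Since droplets of every class also hold free hepatocyte RNA, each count was set beside the count that hepatocyte-like RNA would give if scaled to the Alb UMIs of the class. Malat1 exceeded it in every named class, for example with 16615 UMIs against 3607 in T and NK barcodes of WT and 45131 against 4438 in HKO.

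Among the classes that carry 1 name, Neat1 had its highest level in hepatocyte-like barcodes of WT, and in HKO only neutrophil-like barcodes, of which there were 28 with 54 UMIs of Neat1, stood above them, at 1109 CPM. A class of 19 WT barcodes with markers of macrophages and of dendritic cells stood at 666.8 CPM on 69 UMIs, above the hepatocyte level. Its level was 322.1 CPM in WT and 566.6 CPM in HKO macrophage barcodes, 237.6 and 287.3 in endothelial, and 167.7 and 245.9 in T and NK barcodes. Set beside hepatocyte RNA scaled by Alb, the macrophage count was above it in both libraries (197 UMIs against 160.5 in WT, 658 against 132.5 in HKO), although in WT it was within the counting interval when the list of secreted proteins set the scale (173.9). In T and NK barcodes of WT the Neat1 count was below the scaled value (198 against 308), and in those of HKO the interval included it (474 against 497.7). The scale matters, since free RNA held less Neat1 than hepatocyte-like barcodes: set beside RNA of free RNA depth scaled by Alb, the Neat1 count was above it in each of these classes. It was 198 against 79.32 in T and NK, 34 against 11.92 in B and plasma, 150 against 37.92 in endothelial and 197 against 41.34 in macrophage barcodes of WT.

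The other 8 lncRNAs had between 0 and 34 UMIs in any named class other than hepatocyte-like. Hnf4aos had fewer UMIs than scaled hepatocyte RNA would give in T and NK barcodes, 20 against 51.4 in WT and 34 against 60.8 in HKO. Sorbs2os had no UMI in the 213 T and NK barcodes of WT, which allows up to 2.54 CPM, nor in the 812 of HKO, which allows up to 1.56 CPM. Of 80 counts of these 8 RNAs over the named classes of both libraries, 2 were above and 9 below scaled hepatocyte-like RNA, and 5 above and 0 below scaled RNA of free RNA depth, whether Alb or the secreted proteins set the scale.

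The counts above free RNA depth were small. Gm42047 had 10 UMIs in T and NK barcodes of WT, against 3.253 scaled, 12 in those of HKO, against 2.262, and 5 in macrophage barcodes of HKO, against 0.6022. Gm20528 had 19 UMIs in T and NK barcodes of HKO against 10.46, and Sorbs2os had 7 in endothelial barcodes of HKO against 0.3757, all 7 from 2 barcodes. In classes of mixed markers and in neutrophil-like barcodes the levels of Gm20528 and Gm42047 rested on at most 6 UMIs each and in places stood above the hepatocyte level, such as Gm20528 at 44.64 CPM in the 56 HKO barcodes with markers of macrophages and of dendritic cells. The word "hepatocytes" in the name of the set does not describe Malat1.

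Along the mitochondrial share of hepatocyte-like barcodes the lncRNAs had no steady course: their level was lowest in the middle and high at both ends. The barcodes of each library were put in 5 bins of equal number (quintiles), with median mitochondrial shares of 1.00, 3.95, 11.6, 19.4 and 34.7% in WT and 0.967, 8.99, 13.5, 18.1 and 36.6% in HKO. The summed level of the 10 lncRNAs over these bins was 8198, 9221, 4034, 7743 and 12239 CPM in WT, and 17726, 5136, 3094, 4815 and 14860 CPM in HKO. The third bin was the lowest in both libraries, and in HKO the first bin was the highest.

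Malat1 stood at 7436, 8346, 3610, 6879 and 10701 CPM over the WT quintiles and at 16185, 4488, 2581, 4085 and 12543 CPM over those of HKO. Neat1 stood at 530.7, 608.4, 327.9, 664.4 and 1174 CPM in WT and at 1179, 529.5, 433.5, 605.8 and 1894 CPM in HKO. Both RNAs were thus lowest in the middle, and Neat1 was highest at the highest mitochondrial share in both libraries, while Malat1 was so in WT only.

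Hnf4aos stood at 82.31, 109.4, 53.83, 109.1 and 206.4 CPM in WT and at 138.7, 63.53, 48.4, 78.13 and 246.8 CPM in HKO, and so was highest where Neat1 was. Gm20528 stood at 41.56, 49.91, 11.46, 21.35 and 41.98 CPM in WT and at 79.4, 17.28, 9.637, 12.98 and 71.12 CPM in HKO. Gm31356 stood at 18.82, 23.39, 4.247, 12.95 and 24.05 CPM in WT and at 34.19, 9.652, 3.212, 5.677 and 26.54 CPM in HKO. For these antisense RNAs the middle bin held the lowest level in both libraries.

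Gm15622 ran from 8.099 CPM in the middle to 26.49 CPM at the highest share in WT and from 4.926 to 37.02 CPM, at the lowest share, in HKO. 4930556N13Rik ran from 3.852 to 15.83 CPM in WT and from 2.356 to 20.91 CPM in HKO, and Egfros from 0.8889 to 6.964 CPM and from 0.8567 to 7.064 CPM, with the lowest value again in the middle bin. Sorbs2os was the exception in HKO, where the second bin (4.714 CPM) stood just under the third (5.782 CPM). Gm42047 differed at the high end, with 28.12 CPM in the highest WT bin against 6.9 CPM in that of HKO, which rested on 13 UMIs.

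**Figure D2:**
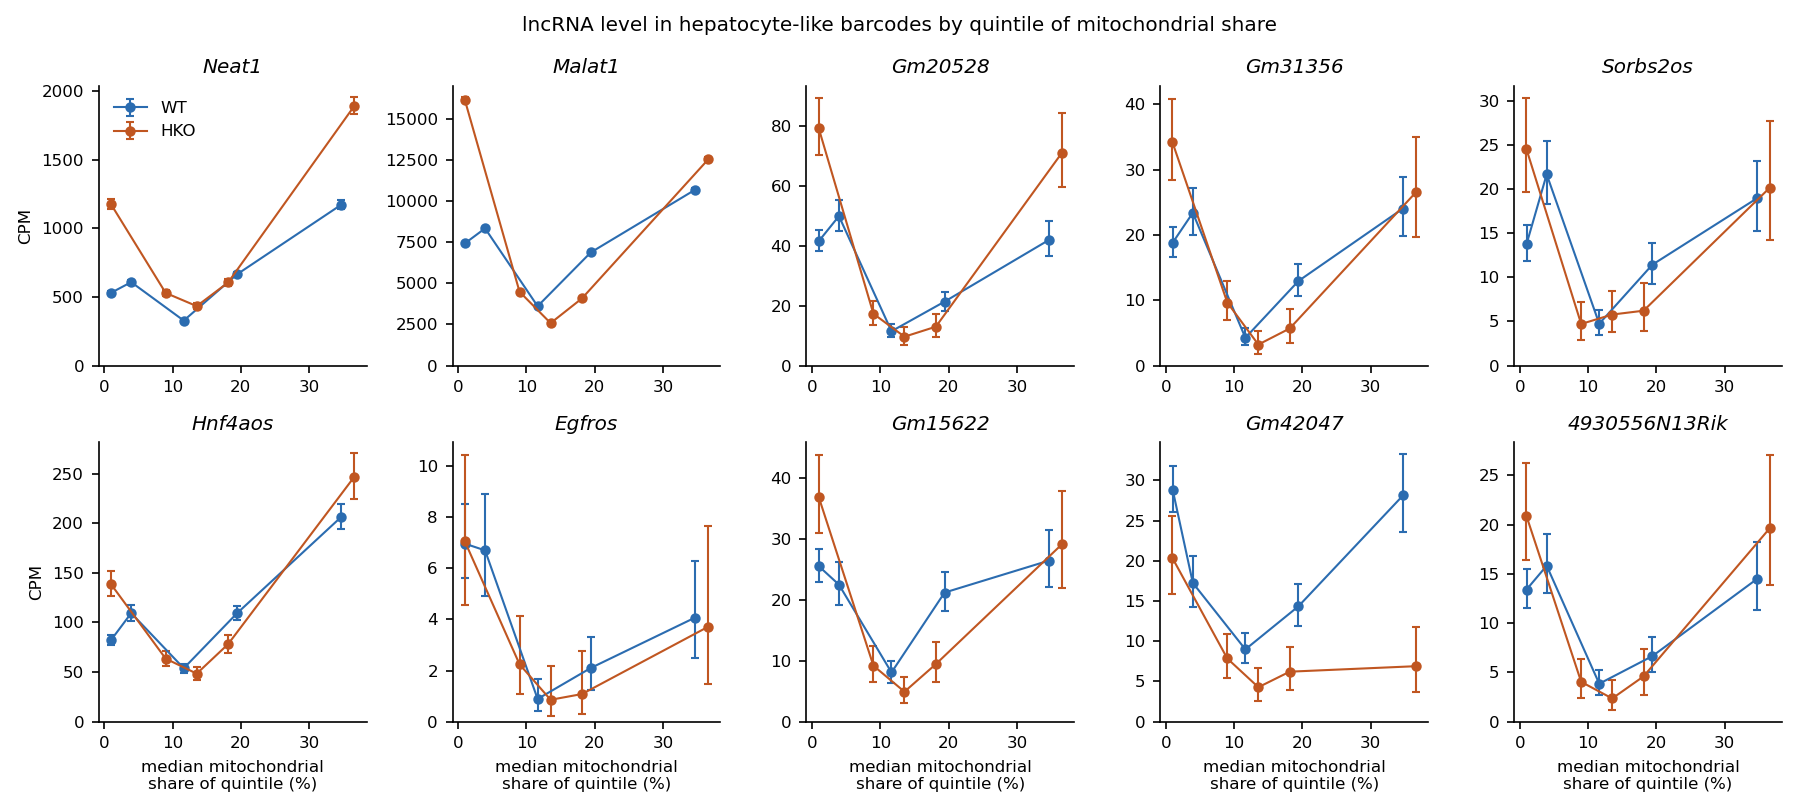
Level of each lncRNA in hepatocyte-like barcodes, in CPM on a linear axis from 0 that differs between panels, over quintiles of mitochondrial share placed at their median share in percent, for WT (blue) and HKO (orange). Bars are 95% counting intervals; every panel but that of Sorbs2os in HKO dips in the third quintile, and Gm42047 in HKO stays low at the highest share (6.9 CPM).

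Because the ends were compared with the middle only after these values had been seen, the ratios are descriptions. The lowest quintile over the third gave 1.62 (1.55 to 1.69) for Neat1, 2.06 (2.04 to 2.09) for Malat1 and 4.43 (3.20 to 6.27) for Gm31356 in WT, and 2.72 (2.58 to 2.87), 6.27 (6.148 to 6.395) and 10.6 (6.20 to 19.6) in HKO. The highest quintile over the third gave 3.58, 2.96 and 5.66 in WT and 4.37, 4.86 and 8.26 in HKO for the same genes. The interval of the ratio lay above 1 for all 10 lncRNAs at both ends in both libraries, except for Gm42047 at the high end of HKO, at 1.61 (0.736 to 3.40). Of all genes past the filter on low levels, 3700 of 7361 in WT and 5072 of 7507 in HKO were above 1 at the low end. At the high end 4327 of 7548 and 4774 of 7632 were. The high end depends on the limit of 50%: without it, 2 of 6 lncRNAs past the filter were at least 2-fold higher in WT, where 2.61% of genes were. In HKO Sorbs2os then turned to 0.467 and Egfros to 0.

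Of the lncRNAs that passed the filter on low levels, 5 of 7 in WT were at least 2-fold higher in the lowest than in the third quintile, against 0.693% of all genes tested, and 9 of 9 in HKO, against 9.52%. At the high end 8 of 8 were at least 2-fold higher in each library, where 16.8% of genes in WT and 26.2% in HKO were. The filter kept several of these lncRNAs only through the bin where they were high (Gm31356 at 18.82 CPM in the lowest and 24.05 in the highest bin of WT, against 4.247 in the middle), so nothing is read from these counts. The lowest and the highest quintile differed less from each other: in WT none of 9 was at least 2-fold higher at the low end (10.9% of genes were) and 2, Neat1 and Hnf4aos, were at least 2-fold lower (11.4%), while in HKO only Gm42047 was higher (15.7%) and none of 9 lower (11.7%). These shares are near the background of all genes, and they are not a result about the lncRNAs.

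Other measures moved with the mitochondrial share too. The median depth of the quintiles was 26828, 8751, 23160, 25112 and 16722 UMIs in WT and 8516, 12537, 14964, 12432 and 8037 UMIs in HKO. UMIs of the 10 lncRNAs per barcode numbered 270.5, 158.1, 99.86, 162.3 and 147.2 in WT and 184.5, 67.5, 42.62, 52.55 and 82.59 in HKO, so the middle bin was the lowest per barcode as well as in CPM. Cytosolic ribosomal protein mRNAs summed to 53021 CPM in the middle and 14560 CPM in the highest bin of WT, and to 57538 and 16663 CPM in those of HKO.

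Markers of other cell types were present in these barcodes. All 9 endothelial markers had UMIs in both libraries, and their summed level was between 31.6 and 68.5 CPM over the quintiles of WT and between 40.1 and 72.7 CPM in HKO, highest in the highest bin of each. All 14 T and NK markers had UMIs and stayed between 8.76 and 17.3 CPM in WT and between 8.53 and 21.8 CPM in HKO, and neither library had its lowest value in the third bin. All 10 macrophage markers had UMIs, and in WT their sum was lowest in the third bin as the lncRNAs were (44.08, 34.51, 17.98, 28.23 and 27.51 CPM), while in HKO it was highest there (20.91, 22.9, 38.55, 27.84 and 23.35 CPM). The 6 plasmacytoid dendritic genes were higher at both ends than in the middle, at 383.1, 283.2, 259.7, 260.7 and 309.4 CPM in WT and 247.8, 224.7, 209.9, 200.9 and 243.1 CPM in HKO, with Bst2 holding 75.8 and 62.4% of their UMIs.

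Other lists were uneven over the bins. The 6 erythroid genes stood at 1895 CPM in the lowest and 49.1 CPM in the highest WT bin, and in HKO at 170.7 and 259 CPM, with 66.44 to 165.4 CPM between. Since classes were set by cluster and not by barcode, 10 WT barcodes with erythroid genes at 512584 CPM were among the hepatocyte-like barcodes. They were the part of a larger cluster, not named erythroid, that met the hepatocyte-like limits. Their lncRNA level was 1008 CPM. The 6 neutrophil genes were high at both ends in HKO, at 79.12, 0.6734, 1.285, 1.352 and 27.6 CPM, as the lncRNAs were, and did not pass 2.741 CPM in WT. The 10 stellate genes stood at 92.96 CPM in the lowest HKO bin and at 19.11 to 28.51 CPM in the others. In WT they stood at 16.74, 18.25, 14.91, 16.56 and 23.03 CPM, and the 9 B and plasma genes at 9.261, 5.704, 5.63, 6.649 and 28.12 CPM. Both lists were thus lowest in the third and highest in the fifth WT bin, as the summed lncRNAs were. In HKO the 9 B and plasma genes stood at 143 CPM in the lowest and 316 CPM in the fourth bin, with Ighm holding 56.9% of their UMIs, and the 7 cholangiocyte genes at 602 CPM in the lowest bin, with Spp1 holding 55.4%. In WT the cholangiocyte genes were highest in the second bin, at 479.6 CPM. The part of these transcripts, of depth and of ribosomal protein mRNAs in the course of the lncRNAs was not tested.

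Without the limit of 50%, 426 further barcodes of WT and 400 of HKO had a mitochondrial share of 50 to 100%, and the lncRNAs stood at 7851 and 17253 CPM in them. Barcodes with a share of 30 to 50% stood at 11970 and 16084 CPM, and those with 10 to 20% at 4854 and 3448 CPM. Most of these sums is Malat1, and single lncRNAs differed: Gm31356 stood at 4.054 CPM in the band of 50 to 100% and 5.211 CPM in that of 10 to 20% in WT, and Sorbs2os at 2.953 and 5.357 CPM in HKO.

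Lists of other genes show which kinds of RNA took the same course. At the high end, 8 of 8 other nuclear lncRNAs that passed the filter were above 1 in both libraries, where 4327 of 7548 genes in WT and 4774 of 7632 in HKO were, with median ratios of 2.97 in WT and 3.01 in HKO against 3.62 and 5.50 for the lncRNAs described here and 1.13 and 1.26 for all genes. Some of the 8, such as Ftx and Pvt1, were under 10 CPM in the middle bin and passed only through the high bin, so the count is no support. Kcnq1ot1, an imprinted antisense RNA that silences neighbouring genes in cis, had 4.52 and 4.86. The mRNAs listed as retained in liver nuclei had medians of 2.64 and 2.86, with Mlxipl, which encodes the glucose-responsive factor ChREBP, at 3.34 and 5.20.

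The lncRNAs that host small nucleolar RNAs, whose spliced products reach the cytoplasm, were lower at the high end than in the middle. None of 6 in WT and none of 7 in HKO was above 1, with medians of 0.373 and 0.314, and Gas5 stood at 0.216 and 0.234. All 77 measured ribosomal protein genes were below 1 in both libraries, with medians of 0.274 and 0.279. Secreted plasma protein mRNAs, a main product of hepatocytes, had medians of 1.18 and 1.06.

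Genes for the proteins of the bodies that Neat1 and Malat1 belong to were closer to the background. At the high end paraspeckle proteins had medians of 1.21 in WT and 1.56 in HKO, with Pspc1, a core paraspeckle protein, at 3.16 and 2.99 and Nono, another, at 0.539 in WT. Speckle and splicing proteins had 1.41 and 1.74, with Pnisr, a splicing-associated protein of the speckle, at 2.81 and 3.38.

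At the low end the same lists differed between the libraries. Other nuclear lncRNAs had medians of 1.45 in WT and 2.36 in HKO and the nuclear-retained mRNAs 1.47 and 2.00, against 3.16 and 6.27 for the lncRNAs described here and 1.00 and 1.22 for all genes. Secreted protein mRNAs had 0.885 in WT and 0.487 in HKO, where all 25 were below 1, and ribosomal protein mRNAs had 0.836 and 1.38. Secreted protein mRNAs summed to 108439 CPM in the lowest HKO bin and to between 172258 and 194424 CPM in the other 4.

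Against free RNA, the other nuclear lncRNAs had medians of 2.18 in WT and 1.496 in HKO and the nuclear-retained mRNAs 1.92 and 1.64, with 1.04 and 1.18 for all genes. The snoRNA host lncRNAs had 1.26 in WT and 1.74 in HKO, the latter above both of these lists. Airn, an imprinted nuclear antisense RNA, was 7.56 and 5.20 times as high in hepatocyte-like barcodes. Gm42418, also on that list, went the other way, at 0.0903 and 0.0344, and made up 44112 CPM of free RNA in WT and 92283 CPM in HKO. The lncRNAs described here had the highest median of the lists at both ends of the mitochondrial share, and since they were chosen from values of these barcodes this is a description.

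**Figure D3:**
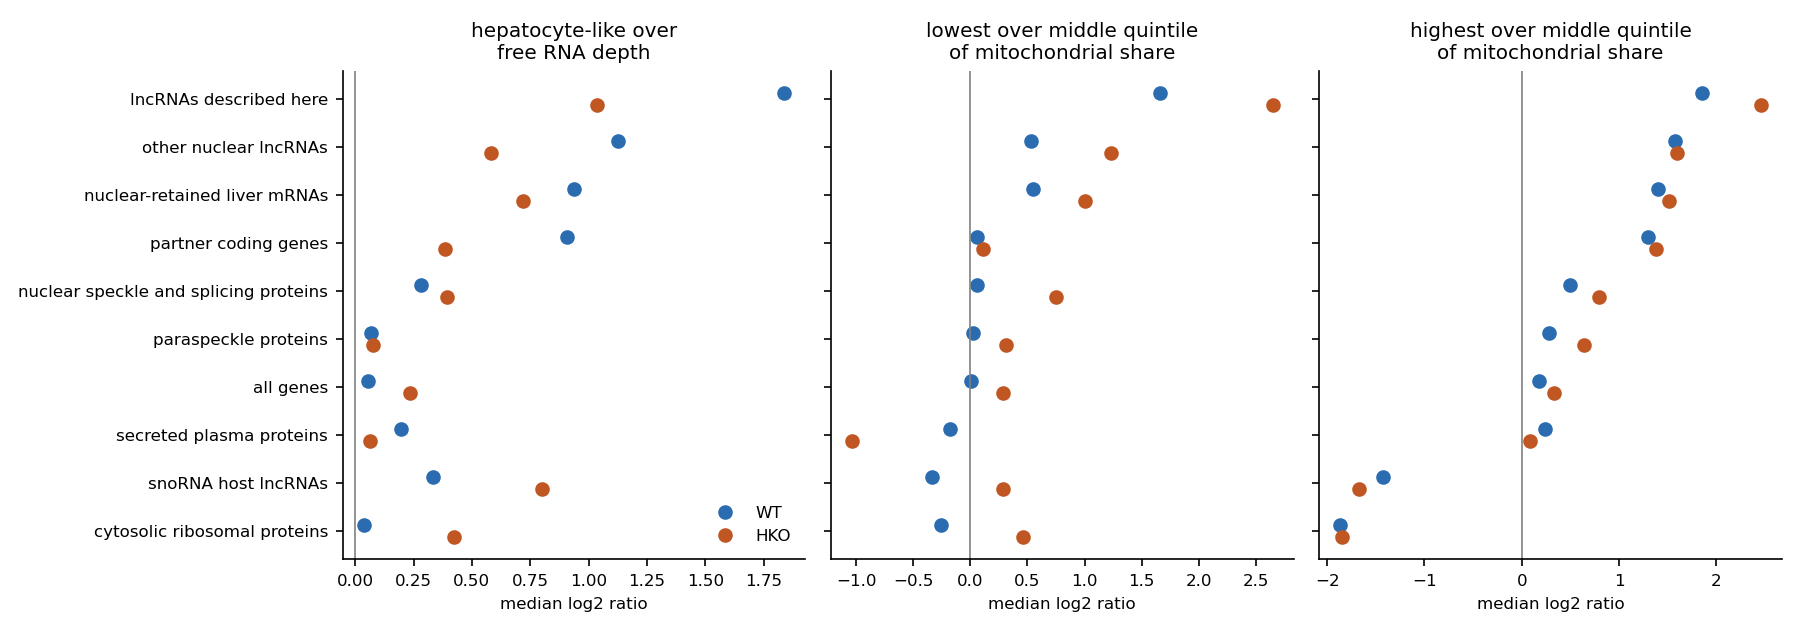
Median log2 ratio of each gene list in WT (blue) and HKO (orange) for 3 comparisons within a library: hepatocyte-like over free RNA depth, and the lowest and the highest over the middle quintile of mitochondrial share. The lncRNAs described here have the highest median in each panel, and ribosomal protein mRNAs are lowest at the high end (median ratios 0.274 and 0.279).

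At the low end the coding genes had smaller ratios than the antisense lncRNAs that overlap them. For the lowest over the third quintile, Hnf4a had 0.854 in WT and 0.927 in HKO, where Hnf4aos had 1.53 and 2.87. Egfr had 1.08 and 1.08, where Egfros had 7.84 and 8.25 on few UMIs (94 against 9 in WT, 25 against 4 in HKO). Sorbs2 had 1.04 and 1.96 beside 2.91 and 4.25 for Sorbs2os, Gpam 1.01 and 1.06 beside 4.43 and 10.6 for Gm31356, and Bhmt 0.678 and 1.05 beside 3.16 and 7.52 for Gm15622.

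At the high end the partners were split. Egfr (2.45 in WT, 2.61 in HKO), Sorbs2 (2.575 and 2.667), the Ugt1a genes together (2.38 and 2.43) and Gpam (1.83 and 2.15) were above the middle, as was Akap1 (1.52 and 1.355). Each value was smaller than that of the antisense RNA, but the intervals of Egfros (1.996 to 11.44 in WT, 1.103 to 20.2 in HKO) and, in HKO, of Sorbs2os (2.074 to 5.94) include the value of the partner. Hnf4a (0.997 and 1.05) stood level and Bhmt (0.428 and 0.413) below it, while their antisense RNAs Hnf4aos (3.84 and 5.10) and Gm15622 (3.27 and 5.93) were higher than in the middle. Counts of the antisense RNA and its partner thus differed in course over the same barcodes, and the differences were not tested.

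When all barcodes past the filters were clustered without these 10 genes and without mitochondrial genes, 1 cluster that had too few markers of another class to be named (Tcf4 and Pkhd1) was led by lncRNAs. Of its 10 leading genes by fold, 7 were Gm31356, Gm20528, Sorbs2os, Gm15622, Neat1, Gm42047 and Hnf4aos. None of them was used to form it, but they were chosen as standing out together in these same barcodes. Their place in the cluster therefore describes the choice. Of its 1141 WT and 1491 HKO barcodes, those deep enough to be hepatocyte-like are described here. They were 801 of the WT hepatocyte-like barcodes (39.2%) with a median mitochondrial share of 22.9%, and 520 of those of HKO (30.7%) with one of 28.3%. They carried 77.6% of the hepatocyte-like UMIs of the 10 lncRNAs in WT and 74.8% in HKO, at 19277 and 28041 CPM.

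The largest other cluster, led by Spp1, A2ml1 and Rab26os, held 856 WT barcodes (41.9%) and 1019 HKO barcodes (60.1%) with median mitochondrial shares of 10.0% and 12.8%. Its lncRNA level was 2624 CPM in the WT and 2760 CPM in the HKO library. A smaller cluster led by Mt1, Gstp1 and Gsta1 held 215 and 145 barcodes with mitochondrial shares of 2.29% and 0.424%, and its lncRNA level was 1771 and 534.7 CPM. The lncRNA-led cluster thus had the highest level of the 3 in both libraries.

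Each of the 10 lncRNAs was higher in the lncRNA-led than in the Spp1-led cluster. The share of all genes that were higher there was not counted, so nothing is read from this count. The ratio was lowest for Gm15622 in WT, at 5.46 (4.69 to 6.37), and for Sorbs2os in HKO, at 6.89 (5.07 to 9.44). It was highest for Gm31356, at 24.3 (18.3 to 33.0) in WT and 25.7 (17.4 to 39.2) in HKO, while Malat1 had 7.41 and 10.5 and Neat1 6.32 and 7.72. Ribosomal protein mRNAs went the other way, with 15541 CPM in the lncRNA-led and 54363 CPM in the Spp1-led cluster of WT, and 12266 and 64369 CPM in HKO. Clusters were formed from the same cells, so these ratios are descriptions.

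The share of barcodes in the lncRNA-led cluster was, like the lncRNA level, lowest in the third quintile of mitochondrial share, but the rest of its course was different. It was 25.9, 28.9, 14.4, 49.6 and 77.2% over the WT quintiles and 27.9, 10.0, 5.31, 23.0 and 87.0% over those of HKO. Inside the cluster the lncRNA level was highest at the low end, at 31424, 26097, 13295, 13584 and 14128 CPM in WT and 57721, 39248, 14638, 12999 and 16738 CPM in HKO. Inside the Spp1-led cluster it stayed between 1881 and 3148 CPM in WT and between 2255 and 4427 CPM in HKO.

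**Figure D4:**
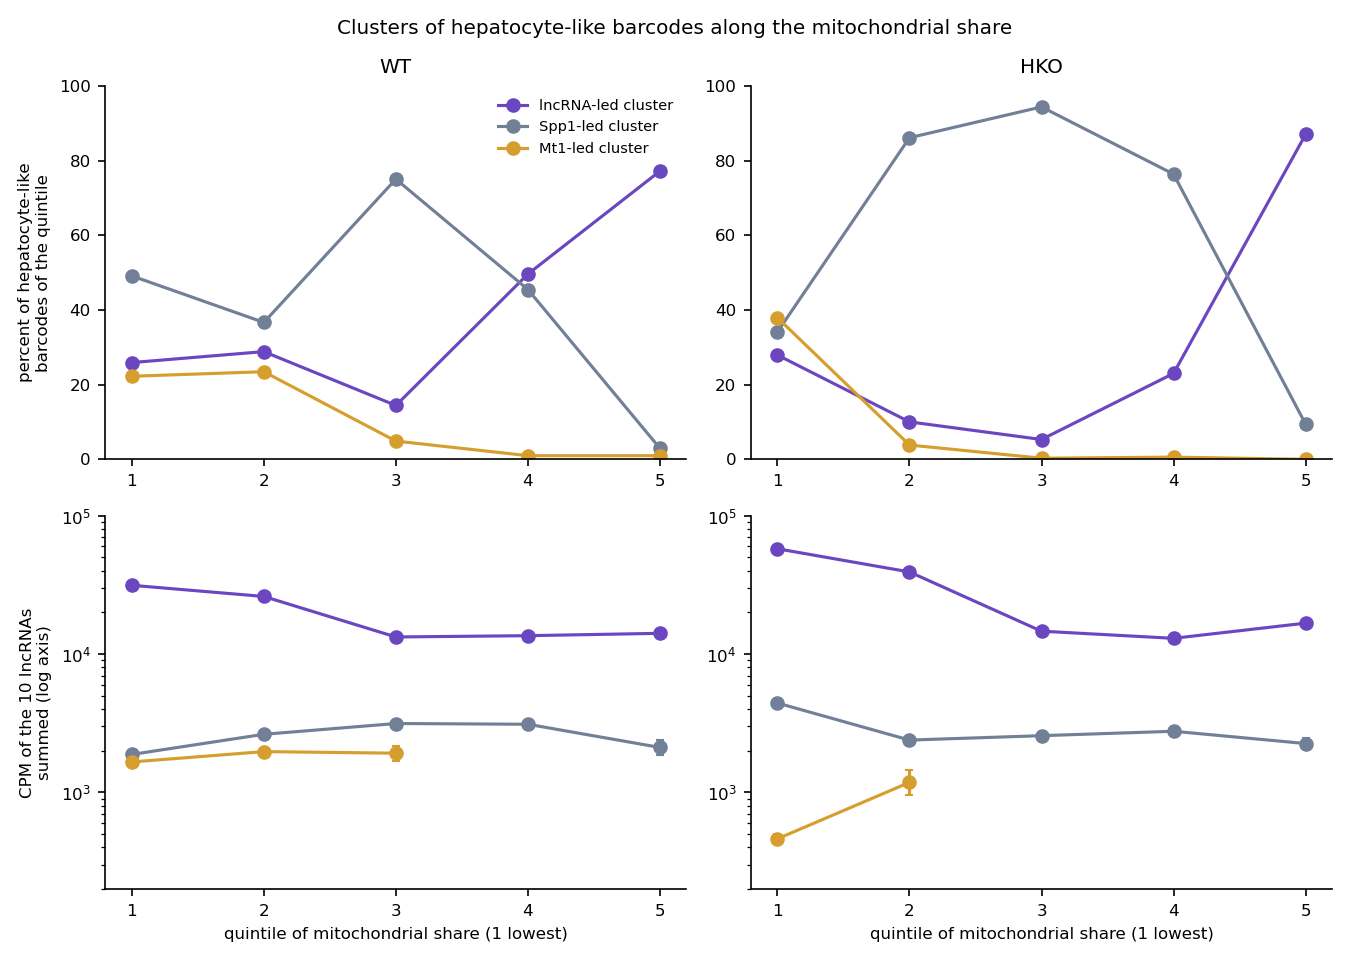
Upper panels: percent of the hepatocyte-like barcodes of each mitochondrial share quintile in the lncRNA-led, the Spp1-led and the Mt1-led cluster, in WT (left) and HKO (right). Lower panels: summed level of the 10 lncRNAs inside each cluster in CPM on a log axis, with 95% counting intervals, for bins of at least 10 barcodes; the lncRNA-led cluster is rarest in the third quintile (14.4% in WT, 5.31% in HKO) and its level is highest in the first.

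By depth, the libraries went different ways. Over quintiles of UMIs that are not mitochondrial, the 10 lncRNAs summed to 3985, 8317, 11883, 9943 and 5726 CPM in WT, highest in the middle, and to 11196, 10041, 10217, 7791 and 5835 CPM in HKO, lowest in the deepest bin. Median mitochondrial shares were 8.15, 17.4, 16.8, 13.3 and 6.32% in WT and 31.4, 12.7, 12.6, 12.6 and 12.04% in HKO. The highest share in a bin was 49.99, 48.93, 45.99, 31.93 and 22.84% in HKO, and the part of the mitochondrial share in these levels was not tested.

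The shallowest over the deepest quintile gave 0.794 for Neat1, 0.687 for Malat1 and 0.453 for Gm20528 in WT, and 2.31, 1.85 and 3.56 in HKO. Of the lncRNAs that passed the filter in WT, none of 6 was at least 2-fold higher in the shallowest bin (0.421% of genes were) and 3 were at least 2-fold lower (0.272%), namely Gm20528, Gm15622 and Gm42047. In HKO 6 of 8 were higher (8.52%) and none of 8 lower (1.48%). Here too some passed only through the bin where they were high, such as Gm31356 at 23.56 CPM in the shallowest and 8.879 CPM in the deepest bin of HKO, so nothing is read from the counts. These directions rest on the depth minimum. Requiring only at least 2 times the commonest depth admits 3961 HKO barcodes. The 8 lncRNAs whose HKO ratio had been at least 2-fold, past the filter or not, then turned below 1. Neat1 turned to 0.605 and Gm20528 to 0.526. Malat1 and Sorbs2os, at less than 2-fold, are not in this count. Over all alternatives 15 of 109 depth values in HKO fell on the other side of 1. With at least 10000 UMIs in both libraries, Gm20528 turned to 1.24 in WT.

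Between the genotypes, the ratios of HKO over WT in hepatocyte-like barcodes lay on both sides of 1. Malat1 had a ratio of HKO over WT of 1.01 (1.00 to 1.02), Hnf4aos of 0.970 (0.917 to 1.03) and Gm20528 of 0.999, and over 11 alternatives these ran from 0.879 to 1.22, from 0.855 to 1.03 and from 0.736 to 1.27. Neat1 was higher in HKO at 1.33 (1.30 to 1.35), and its ratio stayed between 1.19 and 1.49 under the same alternatives, while in free RNA it stood at 131.9 CPM in WT and 270.5 CPM in HKO. Gm42047 was lower at 0.457 (0.384 to 0.541).

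Of the 8 lncRNAs with a mean of at least 10 CPM, none was at least 2-fold higher in HKO, against 0.478% of 7526 genes, and 1, Gm42047, was at least 2-fold lower, against 0.784%. The level of Gm42047 in single barcodes was uneven: 56 of the 1696 HKO barcodes had a UMI of it, and 1 of them held 19 of the 163 UMIs (11.7%), while in WT 306 barcodes did and the highest held 54 of 862 (6.27%). Without the highest barcode of each library the ratio was 0.431, and over the alternatives it ran from 0.396 to 0.5003. Its nearest coding gene, Klhdc4, which encodes a kelch domain protein, also had a lower level in HKO, at a ratio of 0.601 (0.498 to 0.722).

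The remaining lncRNAs had ratios below 1, with 0.876 (0.755 to 1.01) for Gm31356, 0.821 for Sorbs2os, 0.768 for Gm15622, 0.827 for 4930556N13Rik and 0.643 (0.461 to 0.883) for Egfros. The libraries differed in depth and mitochondrial share, so the ratio was also taken within 14 strata of both and weighted over 1937 WT and 1696 HKO barcodes. There it was 1.49 for Neat1, 1.22 for Malat1, 1.27 for Gm20528, 1.12 for Gm31356, 1.08 for Sorbs2os, 1.03 for Hnf4aos and 0.413 for Gm42047, so that Gm20528, Gm31356, Sorbs2os and Hnf4aos moved from below to above 1. The lncRNA-led cluster held 39.2% of WT and 30.7% of HKO barcodes, and genotype and library cannot be told apart.

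**Figure D5:**
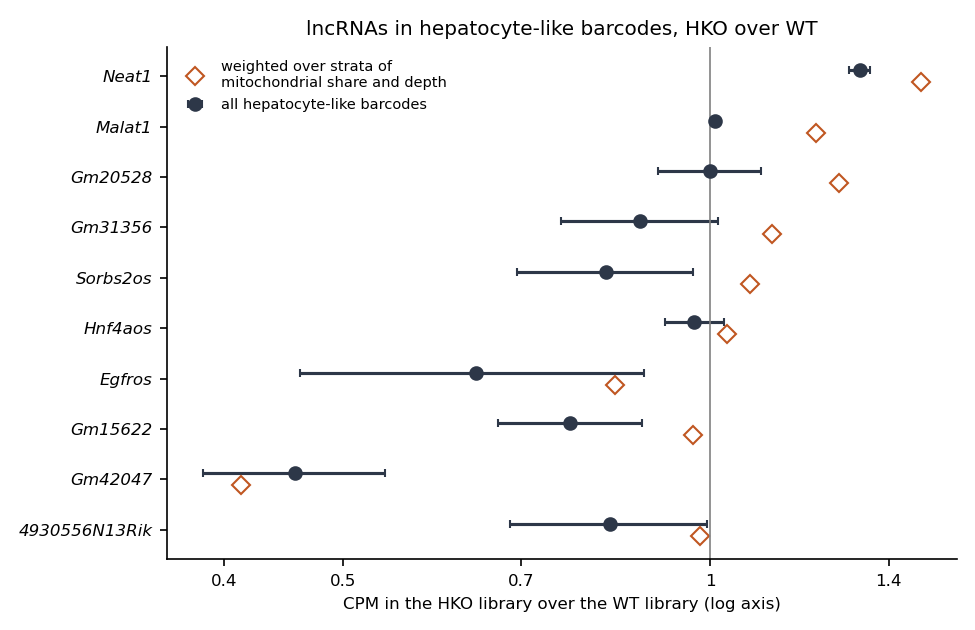
Ratio of the level in HKO to that in WT hepatocyte-like barcodes for each lncRNA on a log axis, with 95% counting intervals (filled circles), and the ratio weighted over strata of mitochondrial share and depth (open diamonds). Neat1 lies above 1 (1.33 and 1.49) and Gm42047 lowest (0.457 and 0.413) by both measures, and Egfros is next lowest (0.643 and 0.836), with 1 library per genotype.

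Across single hepatocyte-like barcodes thinned to 2500 UMIs each, Malat1 and Neat1 went together, with a Pearson correlation of 0.661 over 2044 WT and 0.743 over 1696 HKO barcodes. These barcodes share their library and its free RNA, and the values are a description. Correlation with the mitochondrial share was 0.223 and 0.344 for Malat1 and 0.246 and 0.380 for Neat1, in WT and HKO. It was 0.173 and 0.208 for Hnf4aos and between -0.045 and 0.053 for the other 7.

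The genes whose profile over the 10 quintile points of both libraries was most like the mean profile of the lncRNAs were Mgmt (Pearson correlation 0.990), a DNA repair enzyme gene, Gm36975 (0.984), Lrrc4 (0.983), Gm37240 (0.982), Ascc2 (0.980), Ackr4 (0.979), Plk3 (0.975), 4930581F22Rik (0.975), Chkb (0.973), which encodes a choline kinase, and Coq3 (0.970), a gene of ubiquinone synthesis. Most of these are protein-coding. The lncRNAs themselves had correlations from 0.805 for Gm42047 to 0.988 for Gm31356 with that mean, to which they contribute.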

How the data were processed

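Liver cells of 2 pools, WT and HKO, 1 library each, were analysed. The deposited matrices hold counts of UMIs per gene and barcode, made by the authors with Cell Ranger (version 7.1.0 in the matrix header) on mm10; the submitters' processing notes also list R 3.0 and Seurat 3. The members and lists were chosen with earlier results of these data known. Barcodes with at least 500 UMIs and 300 genes were clustered with scanpy 1.11.5 in Python 3.11.15, without the 10 lncRNAs and the 13 mitochondrial genes. The settings were 2000 variable genes, 30 components, 15 neighbours and resolution 1.0. Clusters were named by at least 3 markers. The limit of 50% mitochondrial UMIs was set only afterwards, on the barcodes of each class. Scrublet called 0 doublets in both libraries and had not worked, so none was removed, and the highest scores were left out in an alternative. Counts were summed per class and divided by UMIs that are not mitochondrial. Exact Poisson and exact conditional intervals (scipy 1.17.1) cover counting error only, with no test, and the code was tested on simulated data. All 10 lncRNAs, the genes of the lists at the extremes, the overlapping or nearest coding genes and the 10 genes of most similar profile are named. In all 13 alternatives were tried.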

Additional observations from a re-analysis of the deposited data

Results flagged for a closer look

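For Malat1 the lowest over the highest quintile of mitochondrial share gave opposite directions in the libraries, 0.695 in WT and 1.29 in HKO. The shallowest over the deepest quintile of hepatocyte-like barcodes gave a ratio below 1 in WT and above 1 in HKO for all 10 lncRNAs, as it did below 1 for 3818 of 7358 genes in WT and above 1 for 4887 of 7589 in HKO. For 5 of them the interval was clear of 1 in both libraries: Neat1 had 0.794 and 2.31, Malat1 0.687 and 1.85, Gm20528 0.453 and 3.56, Gm15622 0.431 and 3.00, and Gm42047 0.413 and 2.74. The other 5 had 0.752 and 2.65 (Gm31356), 0.669 and 1.47 (Sorbs2os), 0.967 and 2.51 (Hnf4aos), 0.321 and 2.11 (Egfros) and 0.687 and 4.08 (4930556N13Rik). With other depth minimums the 8 ratios that were at least 2-fold in HKO turned below 1 there, and others turned above 1 in WT. Malat1 and Sorbs2os, under 2-fold in HKO, are not in that count. Each direction came from 1 library, and these differences between WT and HKO were not tested.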

How the results depend on the processing

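Of 1186 values of the lncRNAs under 13 alternatives, 849 stayed within the counting interval, 320 left it and 17 whose ratio had been at least 2-fold reversed. In all, 84 fell on the other side of 1, and 156 moved by over 1.5 times, 21 of them for the highest over the middle share in WT and 25 in HKO. For hepatocyte over free RNA, 100 of 100 values kept their direction in each library, and for the lowest over the middle mitochondrial share 110 of 110 in WT and 109 of 109 in HKO. For the highest over the middle share 110 of 110 and 106 of 109 did, for the lowest over the highest share 83 of 110 and 102 of 109, for depth 95 of 110 and 94 of 109, and for HKO over WT 93 of 110. Counts below are of genes or lncRNAs at least 2-fold higher (H) or lower (L), lncRNAs out of those that passed the filter there, and the cause of each change was not tested beyond what its setting names.

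With all UMIs as denominator, hepatocyte over free RNA had 211 genes H in WT and 52 in HKO. The lowest over the highest mitochondrial share had 0 of 9 lncRNAs L, 1768 genes H and 12 L in WT, and 3 of 9 lncRNAs H, 2122 genes H and 120 L in HKO. The highest over the middle share had 5 of 5 lncRNAs and 12.5% of genes H in HKO. The shallowest over the deepest quintile had 47 genes L in WT, and 3 of 6 lncRNAs H, 116 genes H and 537 L in HKO. With a mean of at least 1 CPM, which tests more genes, hepatocyte over free RNA had 10 of 10 lncRNAs H, 722 genes H and 137 L in WT and 8 of 10, 567 and 575 in HKO. The mitochondrial ends had 1523 genes L in WT, and 2297 H and 1673 L in HKO, the lowest over the middle had 8 of 10 lncRNAs and 3.14% of genes H in WT, depth had 463 genes H and 363 L in WT and 1713 and 575 in HKO, and HKO over WT had 251 and 152.

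With barcodes weighted equally, hepatocyte over free RNA had 5 of 6 lncRNAs and 144 genes H in HKO, and the mitochondrial ends 0 of 9 lncRNAs and 158 genes L in WT. Thinned to 2500 UMIs, the mitochondrial ends had 1 of 9 lncRNAs and 521 genes L in WT. Depth then had 116 genes H and 186 L in WT and 1061 and 325 in HKO. HKO over WT had 0 of 9 lncRNAs and 1.01% of genes L. Thinning was not run for hepatocyte over free RNA. With terciles, the mitochondrial ends had 0 of 9 lncRNAs L, 460 genes H and 79 L in WT, and 0 of 9 lncRNAs H, 588 genes H and 173 L in HKO, and the highest over the middle share had 5 of 5 lncRNAs and 11% of genes H in HKO. Depth by terciles had 0 of 8 lncRNAs and 3 genes L in WT and 187 genes H and 12 L in HKO, where Gm42047 reversed to 0.860.

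With at least 10000 UMIs, the mitochondrial ends had 2 of 9 lncRNAs H, 709 genes H and 331 L in HKO, and the highest over the middle share 5 of 5 lncRNAs and 15.6% of genes H in HKO. Depth had 2 of 8 lncRNAs H and 0 L, 220 genes H and 307 L in WT, where Gm20528 reversed to 1.24, Egfros to 1.32, Gm15622 to 1.59 and Gm42047 to 1.84, and 0 of 7 lncRNAs and 171 genes H in HKO, where Egfros reversed to 0.931. With at least 2 times the commonest depth only, the mitochondrial ends had 0 of 9 lncRNAs and 16% of genes H in HKO. Depth had 0 of 5 lncRNAs and 67 genes H there. Depth also reversed to 0.605 for Neat1, 0.526 for Gm20528, 0.803 for Gm31356, 0.574 for Hnf4aos, 0 for Egfros, 0.725 for Gm15622, 0.196 for Gm42047 and 0.248 for 4930556N13Rik.

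With no limit on the mitochondrial share, the ends had 3 of 9 lncRNAs H and 0 L, 135 genes H and 105 L in WT, and 2 of 9 lncRNAs H and 2 L in HKO (15% and 13.3% of genes). The highest over the middle share had 2 of 6 lncRNAs and 2.61% of genes H in WT, and in HKO Sorbs2os reversed to 0.467 and Egfros to 0. Depth had 1 of 6 lncRNAs L, 87 genes H and 37 L in WT and 1725 and 905 in HKO, where Egfros reversed to 0.893. With the top Scrublet scores left out, depth had 0 of 6 lncRNAs and 10 genes L in WT. With the highest barcode left out, the mitochondrial ends had 0 of 8 lncRNAs and 15.7% of genes H in HKO. Scaled by the secreted protein list, 1 lncRNA in place of 2 was above scaled hepatocyte RNA in WT macrophage barcodes.

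The middle quintile and the clusters were compared after the data had been seen. No paired analysis was possible because each genotype has 1 library, and leaving out a replicate was impossible for the same reason. Depth limits the sparse lncRNAs, above all Egfros with 50 UMIs in HKO hepatocyte-like barcodes.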
